A study of Mus musculus with 15 samples.

Results

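The 8 genes described here, Isg15, Ifitm1, Ifitm2, Ifitm3, Ifit1, Ifit3, Bst2 and Irf7, are genes that cells switch on in response to interferon. Their rows were taken by symbol from the read count tables of all 15 libraries of RNA from plasma extracellular vesicles (EVs), the membrane-bound particles that cells release into blood. They are 8 of 43472 gene rows, of which 13281 had at least 1 read in the series. All 8 genes had a read in at least 1 library, 3 of them for WT, 8 for dystrophic and 6 for hypertrophic samples.

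Interferons are secreted proteins that bind receptors on nearly all cell types and, through JAK kinases and STAT proteins, start the transcription of a large set of antiviral genes. Much of this transcription runs through a short promoter sequence, the interferon-stimulated response element (ISRE), which is bound by the STAT and IRF transcription factors. The Ifitm proteins act in membranes against virus entry, the Ifit proteins bind foreign RNA, Isg15 is a ubiquitin-like protein that is attached to other proteins, Bst2 (tetherin) holds budding viruses at the cell surface, and Irf7 is the transcription factor that amplifies interferon production.

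The 15 libraries came from 3 conditions. The WT condition (n = 3) was C57BL/6 mice, the dystrophic condition (n = 6) was mice null for Sgcb, the gene of the muscle membrane protein beta-sarcoglycan, and the hypertrophic condition (n = 6) was mice with enlarged muscle. The sample labels give the hypertrophic genotype as MAGIC F1, while the study's methods give these libraries as Mstn-null, so only the condition is used here. By the methods, all these mice were 3 to 6 months old, each sample pooled the EVs of 2 to 3 mice, and the RNA was amplified before the libraries were made. The labels call the source serum where the design text and the methods call it plasma. Replicate numbers only name libraries. The number in the title differs from that of the counts, crossed between the conditions, in 6 libraries (replicates 4 to 6 of dystrophic, 1 to 3 of hypertrophic), so results are also given with these 6 libraries exchanged and with only the 9 whose numbers match.

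The promoter sequences below are shown because most of the 8 genes share the ISRE core. The core was searched as a pair of GAAA half-sites with any 2 bases between them on both strands of RefSeq promoter windows on build GRCm38.p6, from 250 bases before to 50 bases after each gene's start. It was found in the windows of 6 of the 8 genes, against 3.44% of all 32851 windows and 3.24% of the 11454 windows of genes with a read in the series. In the 5 stretches that follow, capitals mark the core, whose half-sites read TTTC on the opposite strand, and each stretch is written 5′ to 3′ on the strand of its gene.
Isg15, chr4:156200875-156200908, minus strand: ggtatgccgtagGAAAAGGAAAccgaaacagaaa
Ifitm2, chr7:140955986-140956019, minus strand: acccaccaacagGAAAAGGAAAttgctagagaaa
Ifit1, chr19:34640792-34640825, plus strand: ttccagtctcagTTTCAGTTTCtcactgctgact
Ifit3, chr19:34583395-34583428, plus strand: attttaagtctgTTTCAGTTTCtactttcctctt
Bst2, chr8:71537575-71537608, minus strand: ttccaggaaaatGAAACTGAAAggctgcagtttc
The cores lay 78 bases before the RefSeq start in Isg15, 46 in Ifitm2, 85 in Ifit1, 122 in Ifit3 and 124 in Bst2. Isg15 held 3 matches that overlap one another, and Ifit1, Ifit3 and Bst2 held 2 each, those of Bst2 overlapping. In Ifitm3 the cores GAAAAGGAAA (chr7:141010733-141010742) and GAAACCGAAA (chr7:141010716-141010725) lay just past the start. The windows of Ifitm1 and Irf7 held no match, which says only that these letters are not in them. The stretches of Ifit1, Ifit3 and Bst2 carried the same core, in Bst2 on the other strand, and that of Isg15 carried the same core as that of Ifitm2. A match is a description of the sequence and was not measured as a bound site.

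The depth, counted as reads on gene rows, ran from 27227 to 32563362 with a median of 2158538, and the genes detected (at least 1 read) ran from 797 to 8968. Levels are given as CPM, reads per 1000000 reads on genes. A gene at 0 may have had up to 3 reads, which is 110 CPM in WT replicate 1, the shallowest library, and 0.0921 CPM in dystrophic replicate 6, the deepest. These limits and the 95% Wilson intervals below cover counting error only, since copies made by amplification are not independent molecules. Sgcb was at 0 in 14 of the 15 libraries, WT included, and had 695 reads in hypertrophic replicate 3, which is 1 of the 6 libraries with crossed numbers and would count as dystrophic in the exchange. Mstn and Hgf, the gene on which Magic-F1 is built, were at 0 in all 15. Cd9, a membrane protein of EVs, had reads in all 15 libraries at 3924 to 33354 CPM.

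Ifitm3 was found in nearly every library and had the highest CPM of the 8 genes in 10 of them, while the other genes came and went between libraries of the same condition. Ifitm3 had reads in 14 of 15 libraries, Ifitm2 in 11, Irf7 in 8, Isg15 in 6, Bst2 in 4, Ifitm1 and Ifit1 in 3 each and Ifit3 in 2. In the series, 2.33% of the genes with a read were counted in at least 14 libraries, 6.98% in at least 11, and 77.3% in at most 6. Where these genes were counted they had many reads. Only 1 of the 51 pairs of a gene and a library with a read had fewer than 10, the single read of Ifitm2 in WT replicate 3.

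**Figure D1:**
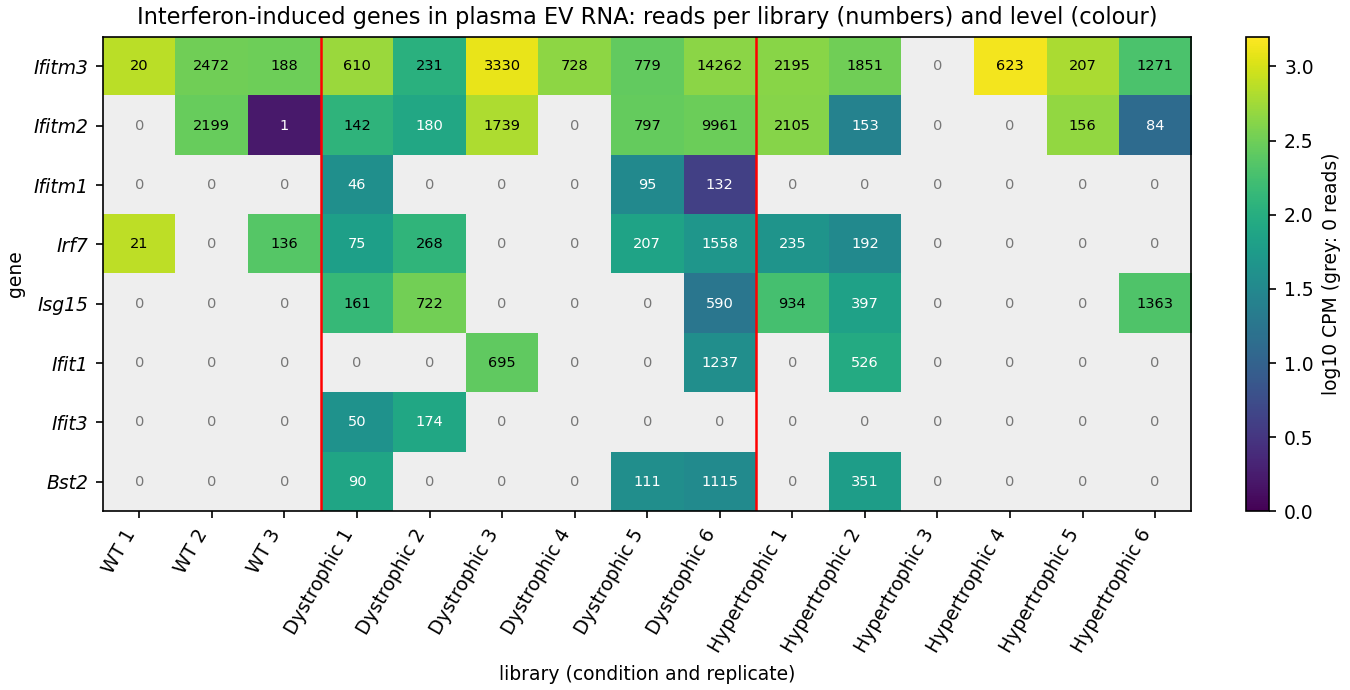
Reads (numbers) and level (colour, log10 CPM, grey for 0 reads) of the 8 genes (vertical axis) in the 15 libraries (horizontal axis), with red lines between the conditions. Ifitm3 fills all columns but hypertrophic 3, Isg15, Ifit1, Ifit3, Bst2 and Ifitm1 are empty in the 3 WT columns, and most other cells hold either 0 or more than 40 reads.

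Ifitm3 (ENSMUSG00000025492.6, chromosome 7, 141009586 to 141010770, minus strand) encodes a protein of endosomal membranes that blocks the entry of enveloped viruses. Its level was 735, 319 and 313 CPM in the 3 WT-derived libraries. The 735 CPM of WT replicate 1 came from 20 reads (Wilson interval 476 to 1134 CPM). In dystrophic-derived EVs it ran from 107 CPM over a median of 445 to 1242 CPM, and in hypertrophic-derived EVs from 0 over a median of 374 to 1381 CPM. The 3 conditions overlapped throughout, with means of 456 ± 242 (SD, n = 3), 505 ± 391 (n = 6) and 492.6 ± 484 CPM (n = 6). The single zero was hypertrophic replicate 3, with 1906406 reads on genes and 1967 genes detected, where the mean of the other hypertrophic-derived libraries predicted 1127 reads of Ifitm3 and a count of 0 allows 1.57 CPM. None of the 8 genes had a read in that library. In 4 libraries another gene had the highest CPM, namely Irf7 in WT replicate 1, Isg15 in dystrophic replicate 2 and hypertrophic replicate 6, and Ifitm2 in dystrophic replicate 5. Ifitm3 was among the more abundant transcripts, from the 109th gene by reads in dystrophic replicate 3 to the 2024th in dystrophic replicate 2.

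Ifitm2 (ENSMUSG00000060591.9, chromosome 7, 140954837 to 140955987, minus strand), a closely related gene of the same cluster, varied far more. It had 0, 284 and 1.66 CPM in the WT-derived libraries, the last of these from 1 read with a Wilson interval of 0.293 to 9.42 CPM. In dystrophic-derived EVs it ran from 0 over a median of 199 to 649 CPM, and in hypertrophic-derived EVs from 0 over 19.7 to 475 CPM. The conditions overlapped, and the WT mean of 95.3 ± 164 CPM (n = 3) rested on WT replicate 2, without which it was 0.831 CPM. The means were 239 ± 232 CPM in dystrophic-derived and 154 ± 225 CPM in hypertrophic-derived EVs (n = 6 each). Dystrophic replicate 4 had Ifitm3 at 453 CPM but no Ifitm2, where 462 reads of Ifitm2 were predicted by the other dystrophic-derived libraries.

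The sequences of these genes are not fully their own. Of the 50-base stretches (the read length) in its annotated transcripts, Ifitm2 shared 22.8% with Ifitm3 and with pseudogenes of the family, and Ifitm3 shared 10.02%. The tables keep a summary row for reads without a unique alignment, so reads from shared stretches would be missing from the gene rows. Ifitm2 also overlaps, on the same strand, the predicted gene Gm45717, which has no row in the tables. Ifitm2 was at 0 in 3 of the 14 libraries that had Ifitm3.

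Ifitm1 (ENSMUSG00000025491.14, chromosome 7, 140967221 to 140969825, plus strand) acts at the cell surface. It was counted in 3 dystrophic-derived libraries, at 39.3, 32.9 and 4.05 CPM in replicates 1, 5 and 6, and in none of the WT-derived or hypertrophic-derived ones. Its dystrophic values ran from 0 over a median of 2.03 to 39.3 CPM, so the conditions overlapped at 0. Dystrophic replicates 5 and 6 are among the libraries with crossed numbers. With the 6 libraries exchanged Ifitm1 was counted in 1 of 6 dystrophic-derived and 2 of 6 hypertrophic-derived libraries, and among the 9 with matching numbers in 1 of 3 dystrophic-derived and 0 of 3 hypertrophic-derived ones.

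Irf7 (ENSMUSG00000025498.15, chromosome 7, 141262706 to 141266481, minus strand) was the gene whose highest levels were in WT-derived EVs. WT replicate 1 had 771 CPM from 21 reads (Wilson interval 505 to 1179 CPM), WT replicate 3 had 226 CPM, and WT replicate 2 had 0 at 7738568 reads, which allows 0.388 CPM. In dystrophic-derived EVs Irf7 ran from 0 over a median of 56.0 to 124 CPM. In hypertrophic-derived EVs it had 45.9 and 33.1 CPM in replicates 1 and 2 and 0 in the other 4. The WT zero lay below both other conditions' highest values, so the conditions overlapped. The WT mean of 332 ± 396 CPM (n = 3) ranged from 113 to 499 CPM as single WT libraries were left out, against 51.3 ± 47.2 CPM in dystrophic-derived and 13.2 ± 20.8 CPM in hypertrophic-derived EVs (n = 6 each). Summed over a condition's reads, the order was another, with 18.8 CPM in WT-derived EVs, 48.9 CPM in dystrophic-derived EVs and 21.3 CPM in hypertrophic-derived EVs. The annotation places the opposite-strand gene Phrf1 over a part of Irf7, and whether the counting used strand is not given in the sources used here.

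Isg15 (ENSMUSG00000035692.6, chromosome 4, 156199424 to 156200818, minus strand) was at 0 in all 3 WT-derived libraries and counted in 3 of 6 libraries of each other condition. In dystrophic-derived EVs it had 138, 334 and 18.1 CPM in replicates 1, 2 and 6 (median over 6 libraries 9.06 CPM). In hypertrophic-derived EVs it had 182, 68.4 and 211 CPM in replicates 1, 2 and 6 (median 34.2 CPM). The other 6 libraries of these conditions had 0, as WT did, so all conditions overlapped. The means were 81.7 ± 135 and 77.0 ± 96.9 CPM (n = 6 each). A count of 0 in each of the 3 WT-derived libraries allows a mean of 38.5 CPM, almost all of it from the shallow WT replicate 1, so the mean was in comparison with WT at least 2.12-fold higher in dystrophic-derived and at least 1.998-fold higher in hypertrophic-derived EVs, as a limit of counting alone. The dystrophic bound rests on 1 library and the hypertrophic bound on the labels. Leaving out hypertrophic replicate 6, the highest of its condition, gave a hypertrophic mean of 50.2 CPM and a bound of 1.30-fold. Without dystrophic replicate 2 the dystrophic mean was 31.1 CPM, and with the 6 libraries exchanged the hypertrophic mean was 38.2 CPM, both under what the WT zeros allow. With the 6 libraries exchanged Isg15 was counted in 4 of 6 dystrophic-derived and 2 of 6 hypertrophic-derived libraries.

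Ifit1 (ENSMUSG00000034459.8, chromosome 19, 34640871 to 34650009, plus strand), whose protein binds viral RNA that lacks the host's cap marks, was counted in 3 libraries. These were dystrophic replicates 3 and 6, at 259 and 38.0 CPM, and hypertrophic replicate 2, at 90.7 CPM. The median was 0 in every condition, so the conditions overlapped, and the means were 0, 49.5 ± 104 and 15.1 ± 37.0 CPM in WT-derived, dystrophic-derived and hypertrophic-derived EVs. Ifit3 (ENSMUSG00000074896.3, chromosome 19, 34583531 to 34588731, plus strand), a partner of Ifit1 in the same cluster, was counted in dystrophic replicates 1 and 2, at 42.7 and 80.6 CPM, and nowhere else. Both are libraries with matching numbers, so the 2 of 6 dystrophic-derived and 0 of 6 hypertrophic-derived libraries stayed the same in the exchange. Ifit1 and Ifit3 were never counted in the same library. Ifit3 shared 51.2% of its 50-base stretches with Ifit3b, which has no row in the tables.

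Bst2 (ENSMUSG00000046718.8, chromosome 8, 71534255 to 71537456, minus strand) shared no 50-base stretch with another gene. It had 76.9, 38.4 and 34.2 CPM in dystrophic replicates 1, 5 and 6, 60.5 CPM in hypertrophic replicate 2, and 0 in the other 11 libraries. Its dystrophic-derived values, with a median of 17.1 CPM, overlapped with the zeros of the other conditions. The means were 24.9 ± 31.1 CPM in dystrophic-derived and 10.1 ± 24.7 CPM in hypertrophic-derived EVs (n = 6 each). With the exchange Bst2 was counted in 2 of 6 libraries of both conditions. The mean of Ifit1 in dystrophic-derived EVs was at least 1.29-fold higher than in WT-derived EVs by the same limit as for Isg15. That bound rested on dystrophic replicate 3, without which the mean was 7.60 CPM, under the limit. The means of Ifit1 in hypertrophic-derived EVs and of Ifitm1, Ifit3 and Bst2 in either condition lay below the 38.5 CPM that the WT zeros allow. By this limit on the mean they could not be set apart from WT. The limit comes almost wholly from the shallow WT replicate 1, where a count of 0 allows 110 CPM. In WT replicates 2 and 3 it allows 0.388 and 4.99 CPM.

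**Figure D2:**
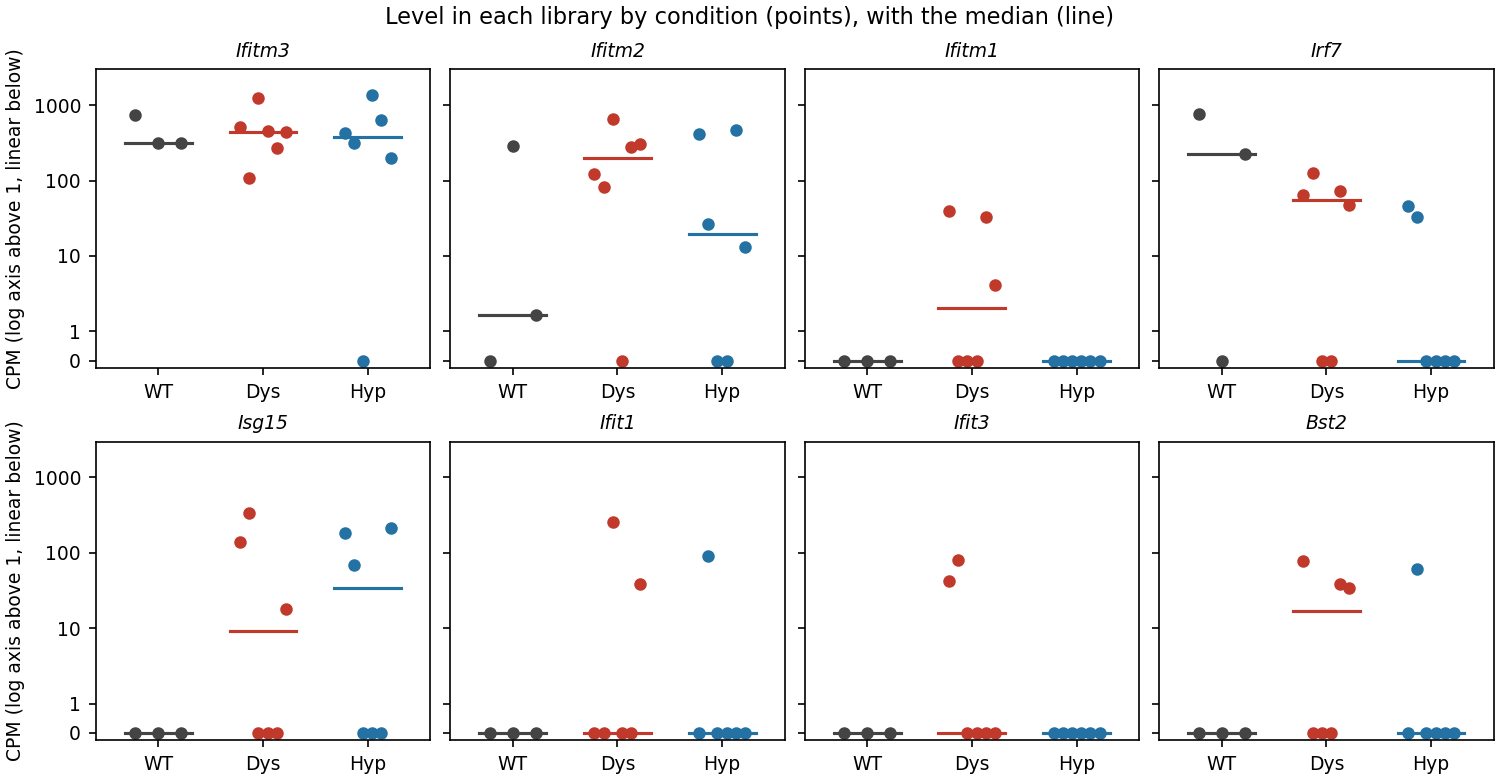
Level of each gene in CPM (vertical axis, logarithmic above 1 and linear below) by condition (Dys, dystrophic; Hyp, hypertrophic), 1 point per library and a line at the median. In every panel the points of the 3 conditions overlap, at 0 or, for Ifitm3, between 313 and 735 CPM.

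Levels of different genes were compared per kilobase of annotated exon, merged over all transcripts of a gene. On this scale the median over the 15 libraries was 632 CPM per kb for Ifitm3, 127 for Ifitm2, 8.77 for Irf7 and 0 for the other 5 genes. Ifitm3 was above Ifitm2 in 13 of the 14 libraries with either of them. The means per kb followed the order Ifitm3 (723), Ifitm2 (269), Isg15 (83.9), Irf7 (24.4), Bst2 (15.5), Ifit1 (9.74), Ifit3 (4.71) and Ifitm1 (4.64). All 8 ranges reached down to 0, so neighbours in this order overlapped. The merged exons of Irf7 cover its gene from end to end (3776 bases), which lowers its value per kb. Reads missing from the stretches that Ifit3 shares with Ifit3b would lower that of Ifit3. Ifitm2 and Ifitm3 together held from 26.1% to 100% of the reads of the 8 genes in the 14 libraries that had any.

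The genes did not appear as a block. Over the 15 libraries the Spearman correlation of their CPM was highest between Ifitm1 and Bst2 (rho = 0.81), which were counted together in 3 of the 4 libraries with either. It was 0.57 between Isg15 and Ifit3, counted together in 2 of 6. Ifitm2 and Ifitm3 had a rho of 0.16, and Isg15 and Ifitm3 one of -0.37. These are descriptions over 15 libraries that differ in depth and have many zeros in common. Dystrophic replicates 1 and 6 held 7 of the 8 genes each, the first without Ifit1 and the other without Ifit3, and hypertrophic replicate 2 held 6.

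For each gene counted in at least 8 libraries, the genes with the most similar level over the 15 libraries were sought among 2320 others with a read in at least 8. For Irf7 they were Vti1b (rho = 0.94), Carhsp1 (0.91) and Mgea5 (0.81). For Ifitm2 they were Hp1bp3 (0.89), the platelet collagen receptor gene Gp6 (0.89) and Mbd2 (0.87). For Ifitm3 the highest values were lower, at 0.67 for 1110032A03Rik and 0.66 for Rpl22 and Rtn3. They were picked as the highest of 2320 values, and libraries with few genes put zeros in common.

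The comparison of the conditions asked whether the EV content of interferon-induced mRNA differs with muscle wasting or enlargement. By edgeR's quasi-likelihood test with Benjamini-Hochberg adjustment over 6887 genes, none of the 6 genes tested passed an adjusted p of 0.05 in any comparison. The background was as low, with 0.0145% of the genes tested called between dystrophic-derived and WT-derived, 0.029% between hypertrophic-derived and WT-derived, and 0.0145% between hypertrophic-derived and dystrophic-derived EVs. Ifitm1 and Ifit3 did not pass the filter on low counts and were not tested. Of the other 6, Isg15, Ifit1 and Bst2 had no read in WT-derived EVs and passed the filter only through the conditions where they were counted, so a difference from WT was built into their selection and their p-values against WT are given as a description. At an unadjusted p under 0.05 the counts were 1, 1 and 0 of the 6 genes, beside 2.02%, 8.02% and 12% of all genes tested.

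Ifitm3 had the narrowest estimates. Its log2 fold change was 0.18 ± 1.66 (SE) between dystrophic-derived and WT-derived, -0.35 ± 1.63 between hypertrophic-derived and WT-derived, and -0.53 ± 1.34 between hypertrophic-derived and dystrophic-derived EVs. The 95% interval of the first ran from -3.06 to 3.43, so changes of several-fold in either direction were not detectable with these libraries. For Ifitm2 the estimates were 0.97 ± 2.36, -0.13 ± 2.25 and -1.10 ± 1.86 in the same order. With the 6 libraries exchanged, the signs of all 3 Ifitm3 estimates and of both Ifitm2 estimates for hypertrophic-derived EVs turned, and the estimates of both genes for hypertrophic-derived against WT-derived EVs also turned without TMM scaling. Irf7 was estimated at -2.21 ± 2.70 and -4.25 ± 2.80 against WT (adjusted p = 0.880 and 0.432, edgeR) and at -2.04 ± 2.37 between hypertrophic-derived and dystrophic-derived EVs, all with intervals that include 0. Over all genes tested the median log2 fold change was 1.38, 0.66 and -0.52 in the 3 comparisons.

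**Figure D3:**
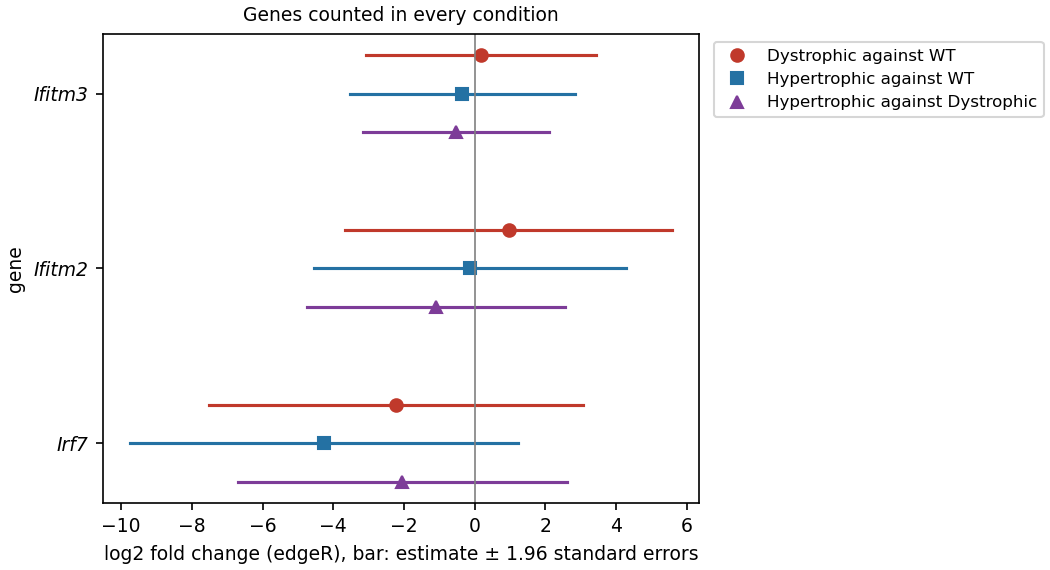
Fitted log2 fold change (horizontal axis, edgeR) of the 3 genes counted in every condition, with bars for the 95% interval from the standard error. All 9 bars cross 0, and those of Ifitm3 are the shortest.

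Isg15, Ifit1 and Bst2 were at 0 in all WT-derived libraries and counted in both other conditions. This held for 3 of the 8 genes (37.5%), all of which had a read in the series, and for 23.8% of the 13281 genes with a read. Among the genes tested by edgeR it held for 3 of 6 and for 27.9% of 6887. Their fitted fold changes against WT depend on the small count added to zeros and are not given as sizes. The unadjusted p of Isg15 against WT was 0.0471 (dystrophic) and 0.0455 (hypertrophic), and the adjusted p was 0.433 and 0.430 (edgeR). DESeq2 called all of them higher in both comparisons, with adjusted p of 7.05e-10 and 6.57e-10 for Isg15, 7.56e-07 and 3.42e-06 for Ifit1, and 2.47e-06 and 5.72e-06 for Bst2. In the same DESeq2 fits 19.1% and 22.2% of all genes tested were called, 18.9% and 18.8% as higher. Between hypertrophic-derived and dystrophic-derived EVs DESeq2 called 0 of the 6 genes, beside 4.69% of all genes and 0.305% as higher. Between these 2 conditions edgeR gave Isg15 a log2 difference of 0.12 ± 2.43.

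Detection was compared with two-sided Fisher's exact tests of the libraries with a read, adjusted over all genes. None of the 8 genes was called in any comparison, beside 0% of the 12335, 10102 and 12978 genes tested, and at an unadjusted p under 0.05 there were 75, 18 and 25 genes, none of the 8 among them. The smallest p that 6 against 3 libraries allow is 0.0119, and 6 against 6 allow 0.00216. The lowest value of the 8 genes between hypertrophic-derived and dystrophic-derived EVs was that of Ifitm1, counted in 0 of 6 and 3 of 6 libraries (Fisher's exact p = 0.182). Against WT, Isg15, Ifitm1 and Bst2 with 3 of 6 dystrophic-derived and 0 of 3 WT-derived libraries had an exact p of 0.464.

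The number of the 8 genes found in a library was 2, 2 and 3 in WT-derived EVs. It ran from 1 over a median of 5 to 7 in dystrophic-derived and from 0 over 2.5 to 6 in hypertrophic-derived EVs. The conditions overlapped, with means of 2.33 ± 0.577, 4.67 ± 2.34 and 2.67 ± 2.16 genes. If every library had 27227 reads, the expected means were 2.01, 3.88 and 2.28 genes. With the 6 libraries exchanged the dystrophic mean was 4.17 and the hypertrophic mean 3.17.

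The same order was seen in the genes tested by edgeR, which leave out Ifitm1 and Ifit3. With each gene counted once per library, the 8 genes had a read in 29.2% of cases for WT, 58.3% for dystrophic and 33.3% for hypertrophic samples, and the genes tested by edgeR in 35.1%, 55.9% and 37.6%. The number of the 8 genes followed the number of all genes detected (Spearman rho = 0.79, n = 15 libraries) more closely than the reads (rho = 0.45). Zeros were common where reads were predicted from the other libraries of the condition. Of the 80 pairs with at least 10 reads predicted for these genes, 35 were at 0 (43.8%), against 56.1% of 90572 such pairs over all genes. The depth and the number of genes detected differ between libraries of a condition, and their part in the zeros was not tested.

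**Figure D4:**
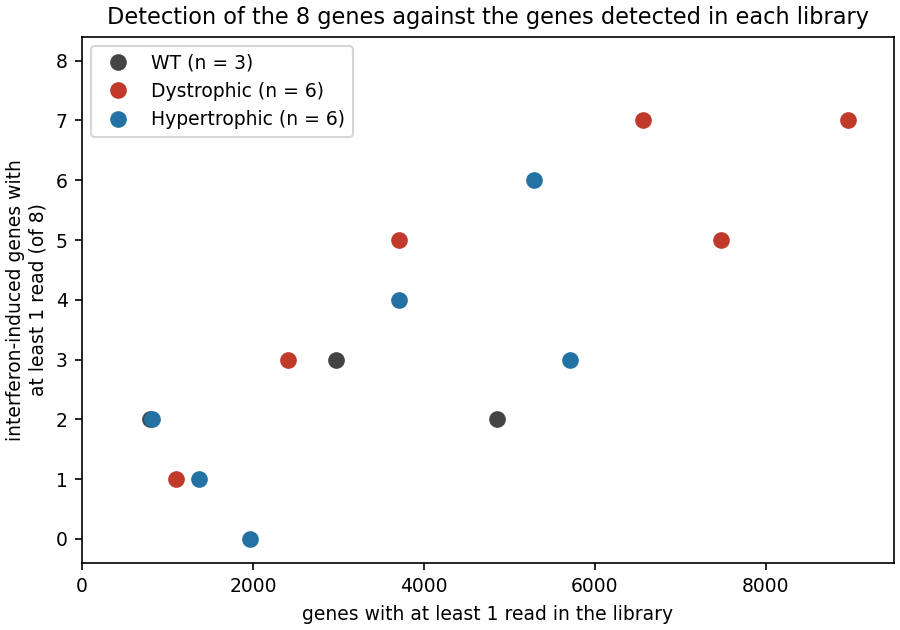
Number of the 8 genes with a read (vertical axis) against all genes with a read (horizontal axis), 1 point per library, coloured by condition. Libraries with few genes detected hold at most 3 of the 8, and the pair with 7 are dystrophic-derived with 6567 and 8968 genes.

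The rest of the pathway had the same scattered presence. Of 123 other interferon pathway genes with a row, 93 had a read in some library, 52 for WT, 90 for dystrophic and 74 for hypertrophic samples, where WT had 3 libraries and the others 6. The interferons themselves were nearly absent. Of 20 ligand genes, 19 were at 0 throughout, among them Ifnb1 and all alpha interferons listed, and Ifng had 77.4 CPM in 1 dystrophic-derived library. The receptor and JAK-STAT genes were counted for 11 of 12, the nucleic acid sensors for 10 of 14 with Tlr3, Tlr7, Tlr8 and Tlr9 at 0, the other IRF factors for 6 of 6, the feedback inhibitors for 5 of 5 and other induced effectors for 57 of 62. The effectors at 0 in all libraries included Cxcl10, Oas2 and Ddx60.

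The 9 pathway genes counted in at least 10 libraries were led by Sp100, a nuclear body protein, in 14, and Ube2l6, the conjugating enzyme that passes Isg15 on to its targets, in 13. Ube2l6 had 764 ± 1248 CPM in WT-derived EVs (n = 3), 403 ± 231 CPM in dystrophic-derived EVs and 330 ± 344 CPM in hypertrophic-derived EVs (n = 6 each). Uba7, the activating enzyme for Isg15, was counted in 12 libraries at 86.2 ± 76.7, 251 ± 276 and 114 ± 119 CPM. Reads of both enzymes were thus present in more libraries than those of Isg15 itself, which had 6. The others were Isg20, Ptpn6 and Jak2 in 12 libraries each, Jak1 in 11, and Ifi47 and Samhd1 in 10 each. Jak2, a kinase at the interferon gamma receptor, had 20.9 ± 34.8 CPM in WT-derived EVs, 108 ± 117 CPM in dystrophic-derived EVs and 397 ± 368 CPM in hypertrophic-derived EVs, with overlapping ranges.

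By edgeR 67 pathway genes were tested and none was called higher or lower in any comparison. The smallest adjusted p were 0.433, 0.267 and 0.123. At an unadjusted p under 0.05 there were 1.49% (1 gene) between dystrophic-derived and WT-derived, 8.96% (6 genes) between hypertrophic-derived and WT-derived and 11.9% (8 genes) between hypertrophic-derived and dystrophic-derived EVs, near the shares of all genes given above. The median log2 fold change of these genes was 1.88, 1.37 and -0.27. By DESeq2, 7 of the 67 genes (10.4%) were called higher and 0 lower in dystrophic-derived against WT-derived EVs, and 8 (11.9%) higher and 2 lower in hypertrophic-derived against WT-derived EVs, beside 18.9% and 18.8% of all genes tested called higher. In both directions together the calls against WT were 10.4% and 14.9% of the 67 genes, beside 19.1% and 22.2% of all genes tested. Between hypertrophic-derived and dystrophic-derived EVs DESeq2 called 1 higher and 2 lower (4.48%), beside 4.69% of all genes tested and 0.305% as higher.

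**Figure D5:**
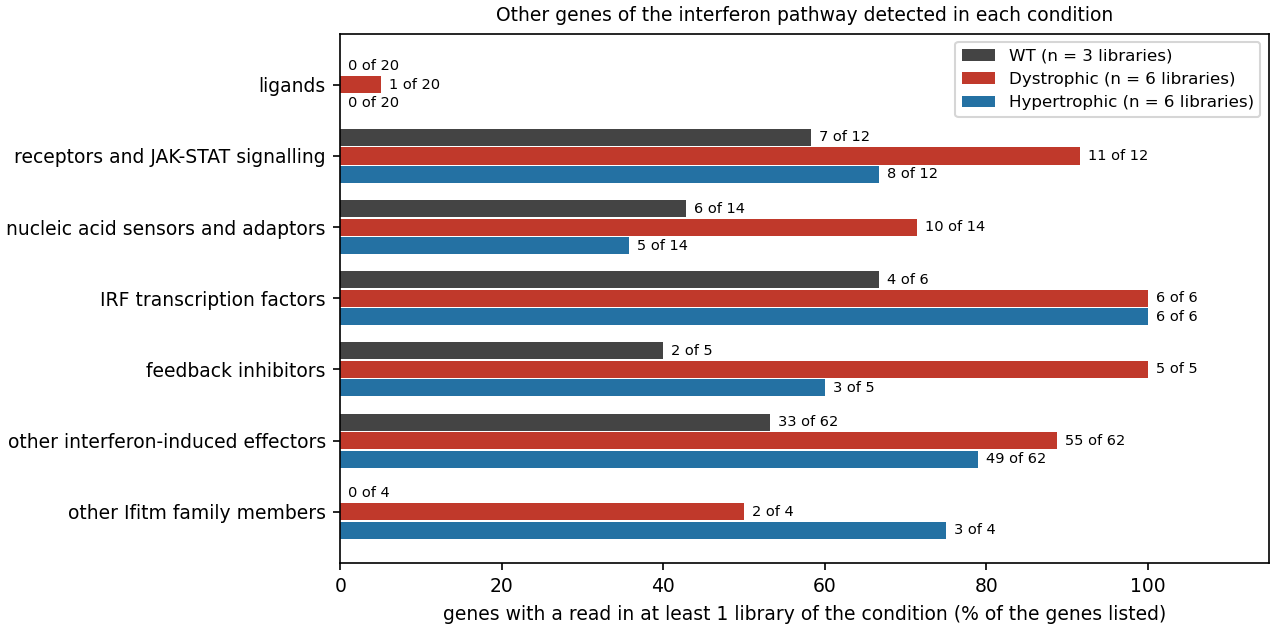
Percent of the genes of each pathway list with a read in at least 1 library of the condition (horizontal axis), with the count beside each bar. The ligands are nearly empty at 1 of 20, and for every list the WT bar, from 3 libraries, is no longer than the dystrophic bar, from 6.

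Transcripts of blood cells were present beside these genes. The platelet gene Pf4, the hemoglobin gene Hbb-bs and the myeloid gene Lyz2 had reads in all 15 libraries, S100a8 of neutrophils in 11, Cd79a of B cells in 10, the endothelial gene Pecam1 in 9, the T cell gene Cd3e in 1, and Siglech of plasmacytoid dendritic cells in none. Single genes do not stand for their lists. Reads in at least 10 libraries were found for 11 of 12 platelet and 6 of 8 erythroid genes with a row. The same held for only 2 of 12 neutrophil, 1 of 11 monocyte and macrophage, 4 of 8 B cell and 2 of 8 endothelial genes. It held for 1 of 12 T and NK cell genes and 0 of 7 genes of plasmacytoid dendritic cells. Camp and Ly6g of neutrophils and Fcgr1 of macrophages were at 0 throughout. The 12 platelet genes were all counted in each condition and summed to 20417 to 32174 CPM for WT, 9789 to 21839 CPM for dystrophic and 16487 to 35662 CPM for hypertrophic samples. Of 12 T and NK cell genes, 4 were counted for WT (3 libraries), 12 for dystrophic and 9 for hypertrophic samples (6 libraries each). Their sums were 0 to 111, 213 to 880 and 0 to 1767 CPM. The 7 genes listed for plasmacytoid dendritic cells, Bst2 among them, were counted for 2, 5 and 5 genes, at sums of 0 to 441, 197 to 685 and 0 to 263 CPM. The part of these cells' RNA in the levels of the 8 genes was not tested, and in pooled plasma a smaller number of EVs from a cell type and less RNA per EV cannot be told apart.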

How the data were processed

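The authors isolated EVs from plasma by ultracentrifugation, amplified the RNA and sequenced single reads of 50 bases. Per the labels, the reads were aligned to mm10, and the submitters' processing notes name TopHat, HTSeq and DESeq. The deposited values are raw read counts per gene symbol, without normalization. The 5 summary rows, which name no gene and held 57.9% to 99.2% of the numbers in a table, entered neither library sizes nor tests. The highest shares were 99.2% in WT replicate 1 and 96.2% in WT replicate 3. No sample's replicate number pairs it with another. The p-values measure the spread between pooled samples, and the labels do not say that each pool came from separate animals. The mice that the methods list per genotype for plasma collection were too few for 6 pools of 2 to 3 separate animals. Pools of a condition may thus share animals, and n counts libraries only.

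Differential expression was tested with edgeR 4.0.16 (R 4.3.3, limma 3.58.1): TMM, filterByExpr, 1 quasi-likelihood fit of all 15 libraries, and Benjamini-Hochberg adjusted p under 0.05. Standard errors came from the F statistic. DESeq2 1.42.0, other scalings and filters, exchanged labels and leaving out single libraries were alternatives. The edgeR steps were checked with simulated counts holding changed genes. The simulated spread was smaller than that of the real libraries, whose biological coefficient of variation was 3.04 over the genes tested. The check therefore does not show which changes these libraries could reveal. Detection was tested with Fisher's exact test (scipy 1.17.1). Gene positions are from GENCODE M21 (39483 symbols matched) on GRCm38, and promoters from RefSeq. The 8 genes and all lists were chosen with earlier results of these data known. Named were all 8 genes, pathway genes with reads in at least 10 libraries, fixed cell markers and, for genes in at least 8 libraries, the 3 most similar genes. The pathway genes at 0 and Ifng were named after their values were seen. Precision is limited by the wide spread between libraries. Depth ran from 27227 to 32563362 reads, and its part in that spread was not tested.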

Additional observations from a re-analysis of the deposited data

Results flagged for a closer look

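Within the conditions of 6 libraries, 4 of 14 groups of a gene and a condition held 1 library far from the rest by Dixon's criterion, which by chance picks about 1 in 20 groups of normally distributed values. A group with a single library above 0 always meets it, as Ifit1 and Bst2 in hypertrophic-derived EVs did, so the count of 4 is not to be read against that rate. Ifitm3 was at 1242 CPM in dystrophic replicate 3, where the next highest dystrophic-derived library had 521 CPM. Ifit1 was at 259 CPM in the same library, where dystrophic replicate 6 had 38.0 CPM and the other 4 had 0. Hypertrophic replicate 2 was the only hypertrophic-derived library with a read of Ifit1 (90.7 CPM) and of Bst2 (60.5 CPM), so that both stood out against zeros.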

How the results depend on the processing

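No paired analysis was possible because the labels carry no replicate number that conditions share. The numbers in the titles are unique to each library, and the replicate numbers used here follow the order of the samples. The count of 0 called among the 8 genes held under every edgeR setting and every library left out. Under DESeq2 it was 3 between dystrophic-derived and WT-derived and 3 between hypertrophic-derived and WT-derived EVs. These were Isg15, Ifit1 and Bst2, whose difference from WT was built into their selection. Over all genes, the 1, 2 and 1 calls became 1315, 1528 and 323 with DESeq2, and 0, 0 and 0 both without a filter and without mitochondrial and hemoglobin genes. They ranged from 1 to 2, 1 to 3 and 0 to 2 as single libraries were left out. Between dystrophic-derived and WT-derived EVs there were 3 without TMM, 2 with the 6 libraries exchanged and 3 with the 9 libraries whose numbers match, and between hypertrophic-derived and dystrophic-derived EVs 0 under both of the latter.

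Signs turned for small estimates. The Isg15 log2 difference between hypertrophic-derived and dystrophic-derived EVs became -0.095 without TMM, -1.33 with the exchange, -0.84 in the 9 libraries and -0.20 with DESeq2, and ranged from -0.56 to 1.24 with single libraries left out. Ifitm2 between hypertrophic-derived and WT-derived EVs became 0.66 without TMM, 0.55 with the exchange and 0.62 with DESeq2, and ranged from -1.42 to 6.08, the last without WT replicate 2. Between hypertrophic-derived and dystrophic-derived EVs Ifitm2 became 0.057 with the exchange. Ifitm3 became -0.18 with the exchange between dystrophic-derived and WT-derived EVs (-0.0073 to 0.68 with single libraries left out), 0.14 without TMM, 0.054 with the exchange and 0.27 with DESeq2 between hypertrophic-derived and WT-derived EVs, and 0.23 with the exchange between hypertrophic-derived and dystrophic-derived EVs. Irf7 between dystrophic-derived and WT-derived EVs became 0.72 when the lower or higher number range of the title was a covariate. The cause was not tested. Ifitm1 and Ifit3, tested without the filter, had adjusted p of 0.0836 each between hypertrophic-derived and dystrophic-derived EVs (edgeR). Mean levels moved several-fold where 1 library held most of the signal: without dystrophic replicate 2 Isg15 fell from 81.7 to 31.1 CPM, without dystrophic replicate 3 Ifit1 fell from 49.5 to 7.60 CPM, without hypertrophic replicate 2 Ifit1 and Bst2 there were at 0, and without WT replicate 2 Ifitm2 fell from 95.3 to 0.831 CPM.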
